A study of Mus musculus with 7 samples.

Results

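Wnt signalling was followed through 37 mouse genes in Paneth cells (PCs), secretory cells that sit at the bottom of intestinal crypts. The genes were fixed by a list of symbols and fall into ligands and their secretion (5 genes), receptors (8), the destruction complex with the Dishevelled genes (9), nuclear factors (7) and targets (8). All 37 symbols matched an identifier of the count table, which held 55414 identifiers, and 36 of them passed the filter on low counts. PCs had been sorted from the small intestine of C57BL/6J mice 15 h after they had been injected with the pro-inflammatory cytokine TNF (tumour necrosis factor) or, as controls, with phosphate-buffered saline (PBS). RNA of 3 PBS and 4 TNF libraries was sequenced, each library from a different mouse per the series description. For the dose, the sex and age of the mice and the gate of the sort, nothing is given in the sources used here.

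Wnt proteins are lipid-modified ligands that bind Frizzled receptors and Lrp5 or Lrp6 on a neighbouring cell. Binding stops the destruction complex of Axin, Apc, Gsk3b and casein kinase 1 from degrading beta-catenin (Ctnnb1), which then enters the nucleus and activates targets with Tcf and Lef factors. In the crypt, PCs are a source of Wnt3 for the stem cells next to them, and Wnt signals also keep PCs themselves at the crypt base and in their differentiated state.

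The sequences upstream of 4 members are shown because these genes carry the contrasts described here, namely the main ligand Wnt3, the feedback genes Axin2 and Sp5, which moved in opposite directions, and Sfrp5, which changed most. They were taken from the RefSeq promoter windows of GRCm38.p6, located in GRCm39 by exact match, and cut to the bases without an annotated exon. Capitals mark matches on either strand to CTTTGAT or CTTTGTT, forms of the site that Tcf and Lef factors bind, or to GGG and TTTCC with any 2 bases between them, a form of the NF-kB site.
Wnt3, chr11:103664751-103664975, plus strand: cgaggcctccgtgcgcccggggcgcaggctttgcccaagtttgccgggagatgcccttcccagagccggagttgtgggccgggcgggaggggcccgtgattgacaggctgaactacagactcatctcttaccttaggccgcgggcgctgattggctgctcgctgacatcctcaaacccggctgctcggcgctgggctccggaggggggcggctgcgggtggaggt
Axin2, chr11:108810925-108811168, plus strand: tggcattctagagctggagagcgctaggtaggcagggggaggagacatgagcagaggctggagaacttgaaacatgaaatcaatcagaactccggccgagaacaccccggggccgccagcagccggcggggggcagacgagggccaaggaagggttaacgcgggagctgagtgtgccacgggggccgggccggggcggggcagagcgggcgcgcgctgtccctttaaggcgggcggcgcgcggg
Sp5, chr2:70305017-70305266, plus strand: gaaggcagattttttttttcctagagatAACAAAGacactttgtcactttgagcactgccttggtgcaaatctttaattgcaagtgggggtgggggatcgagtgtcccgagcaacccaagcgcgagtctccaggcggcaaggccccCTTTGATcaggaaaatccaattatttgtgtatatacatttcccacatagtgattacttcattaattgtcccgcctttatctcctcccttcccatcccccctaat
Sfrp5, chr19:42190692-42190941, minus strand: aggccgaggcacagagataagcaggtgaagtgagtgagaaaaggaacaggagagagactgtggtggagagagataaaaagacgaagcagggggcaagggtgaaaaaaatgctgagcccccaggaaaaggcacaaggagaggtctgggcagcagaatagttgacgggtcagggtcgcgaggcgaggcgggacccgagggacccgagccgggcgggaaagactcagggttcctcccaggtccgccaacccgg

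Of these 4 stretches, that of Sp5 held matches, and both were to a Tcf form. Promoter windows of 300 bases, 250 before and 50 after a start, were found for 26 of the 37 genes, 36 windows in all. CTTTGAT was present in 2 of these 36 windows, of Sp5 and Wnt11, and in 3.73% of all 32851 RefSeq windows. CTTTGTT was present in 4 of the 36, of Fzd7, Sp5, Tcf7l2 and Wnt3, and in 5.85% of all windows. The NF-kB form was present in 0 of the members' 36 windows and in 1.63% of all windows. A match to letters is no evidence of binding, and no match leaves other sites and more distant regions unexamined.

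Total counts ran from 15511455 to 19193721 per library. Values are CPM (counts scaled to 1e6 on library sizes corrected with TMM, the trimmed mean of M-values). Calls rest on the quasi-likelihood test of edgeR with Benjamini-Hochberg adjustment over all 14329 genes tested, at an adjusted p under 0.05. Between TNF and PBS 59.6% of all genes tested were called, 29.5% higher and 30.1% lower, so a call alone sets no gene apart. With a change of at least 2-fold the shares were 14.4% higher and 17.2% lower. The summed level of the 10 PC markers overlapped between the groups, at 171946 to 281914 CPM after PBS and 172269.8 to 315405 CPM after TNF. Lyz1 and Defa24, with means of 96515 and 71458 CPM after PBS, carried most of this sum. Of these 10 genes 2 were called higher, Defa22 (log2 change 1.76) and Mmp7 (0.88). A further 3 were called lower, Clps (-2.27), Habp2 (-1.26) and Mptx2 (-1.07), and 5 were not called. For 4 genes (Defa22, Mmp7, Clps and Habp2) the groups did not overlap.

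Markers of other cells are given here for every list examined, to be read beside the 29.5% of all genes called higher and 30.1% called lower. The sum of 7 stem cell markers without Axin2 was 3709.5 to 5031 CPM after PBS and 2016 to 2765 CPM after TNF. Of the whole list of 8, which holds the member Axin2, 7 were called lower and 0 higher. The 7 tuft cell markers summed to 1521 to 2530.5 CPM and 304 to 766 CPM, and all 7 were called lower. The 8 cell cycle genes summed to 566 to 613 CPM and 349 to 439 CPM, with 2 called higher and 4 lower. The 9 enterocyte markers summed to 89.4 to 172 CPM and 53.5 to 68.3 CPM, with 4 called lower and 1 higher of 6 tested. The sums of 7 goblet cell markers overlapped at 7411 to 14135 CPM and 6788 to 7416 CPM, with 4 called lower and 1 higher. Without Muc2, which was not called (0.13, edgeR adjusted p = 0.637), the other 6 summed to 3059.7 to 7154 CPM and 906 to 1678 CPM, and Fcgbp changed most (-5.62, adjusted p = 7.68e-07). Those of 7 enteroendocrine markers overlapped at 45.7 to 115 CPM and 50.6 to 89.4 CPM, with 3 called lower and 1 higher. Without Tac1, the gene called higher (4.61, edgeR adjusted p = 6.93e-05), the other 6 summed to 45.3 to 112 CPM and 18.1 to 31.8 CPM. These sums without 1 gene were added after the data were seen. The 7 leukocyte markers summed to 24.2 to 31.9 CPM and 12.5 to 25.2 CPM, with Cd3e and Nkg7 at 0 counts in every library and 1 of 3 tested genes called lower. The 9 stromal and endothelial markers, from cells that also make Wnt ligands, summed to 1.85 to 2.28 CPM and 0.118 to 1.57 CPM, with Col1a2 at 0 counts in every library, and the 1 gene tested, Pdgfrb, was called lower (-1.76, edgeR adjusted p = 0.0226). Of the 5 erythroid markers 4 were at 0 counts in every library. In bulk libraries fewer cells of a type and less RNA per cell cannot be told apart, and the part of these other cells in the results was not tested.

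Of the 36 members tested, 8 (22.2%) were higher and 15 (41.7%) lower after TNF, beside 29.5% and 30.1% of all genes. The median log2 change over the members was -0.26, against 0.0017 over all genes tested. TNF and PBS libraries had separate ranges for 22 members (61.1%), beside 60.7% of all genes. For 10 members the call came with a change of 2-fold or more, beside 31.6% of all genes tested. These were Wnt3, Wnt9b, Porcn, Lgr4, Znrf3, Axin2, Lef1, Notum and Sfrp5, which fell, and Sp5, which rose. With scaling by total counts in place of TMM, the median of all genes moved to -0.163, and 5 members were higher and 16 lower. Of all 14329 genes tested, those called higher went from 4229 to 3142 and those called lower from 4314 to 4614.

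**Figure D1:**
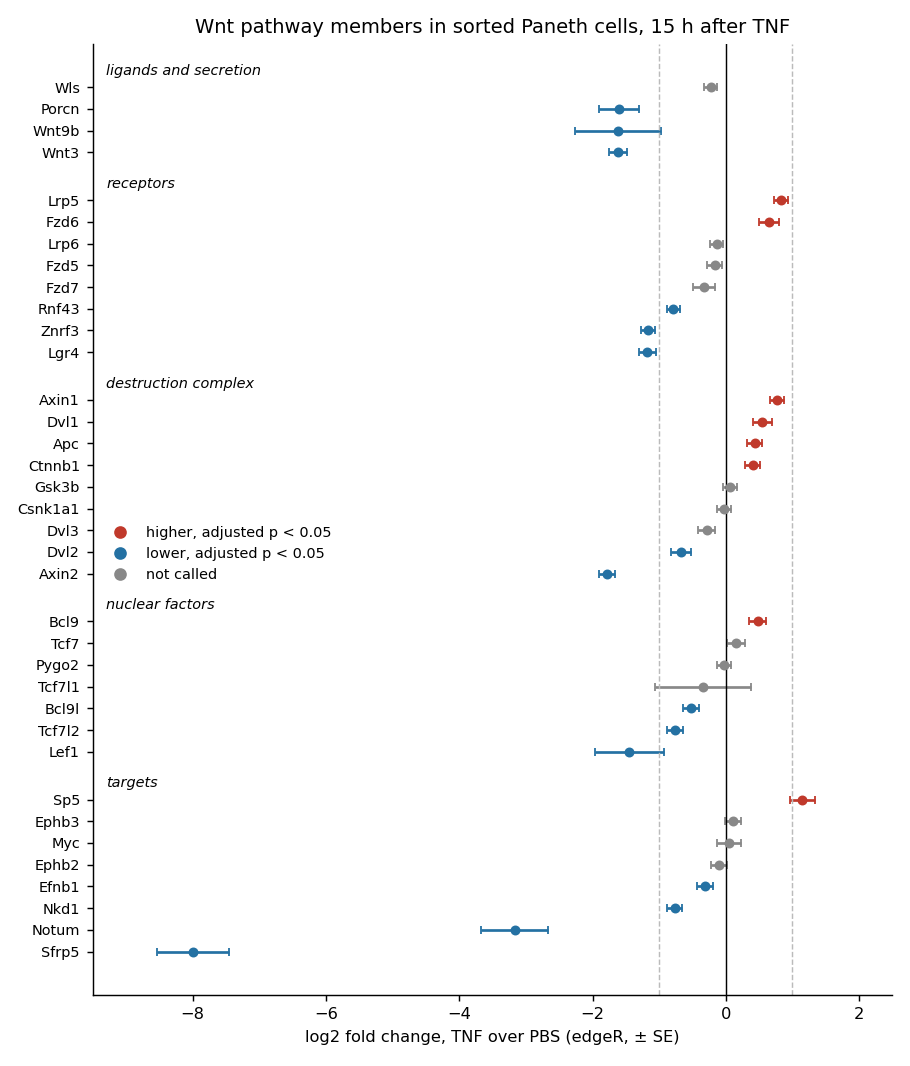
Log2 change of TNF over PBS (edgeR, points with SE bars) for the 36 members tested, ordered within the groups of genes, with dashed lines at a 2-fold change in either direction. Calls are red where higher and blue where lower, and Sp5 is the member beyond the right dashed line while Sfrp5 lies at -8.00.

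Per length of exon, the members covered a wide range of levels in PCs of control mice. Ctnnb1 and Lgr4 were highest after PBS, with means of 77.6 and 75.9 CPM per kb that did not differ beyond their spread and an order that changed between libraries, and Wnt3 followed at 51.2 CPM per kb. The lowest was Wnt11 at 0.00349 CPM per kb, by either length. Lef1 at 0.168 and Tcf7l1 at 0.183 CPM per kb came next. Their order turned with the length of the longest transcript (0.426 and 0.276 CPM per kb). After TNF, Ctnnb1 was first of 37 at 102 CPM per kb, while Wnt3 went from rank 3 (rank 4 by the length of the longest transcript) to rank 8 with 16.6 CPM per kb and Axin2 from rank 6 to rank 22 with 6.45 CPM per kb. Lrp5 went the other way, from rank 12 to rank 5, with levels of 15 and 26.8 CPM per kb. The highest member of each group was Wnt3, Lgr4, Ctnnb1, Bcl9 and Ephb3 both after PBS and after TNF.

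**Figure D2:**
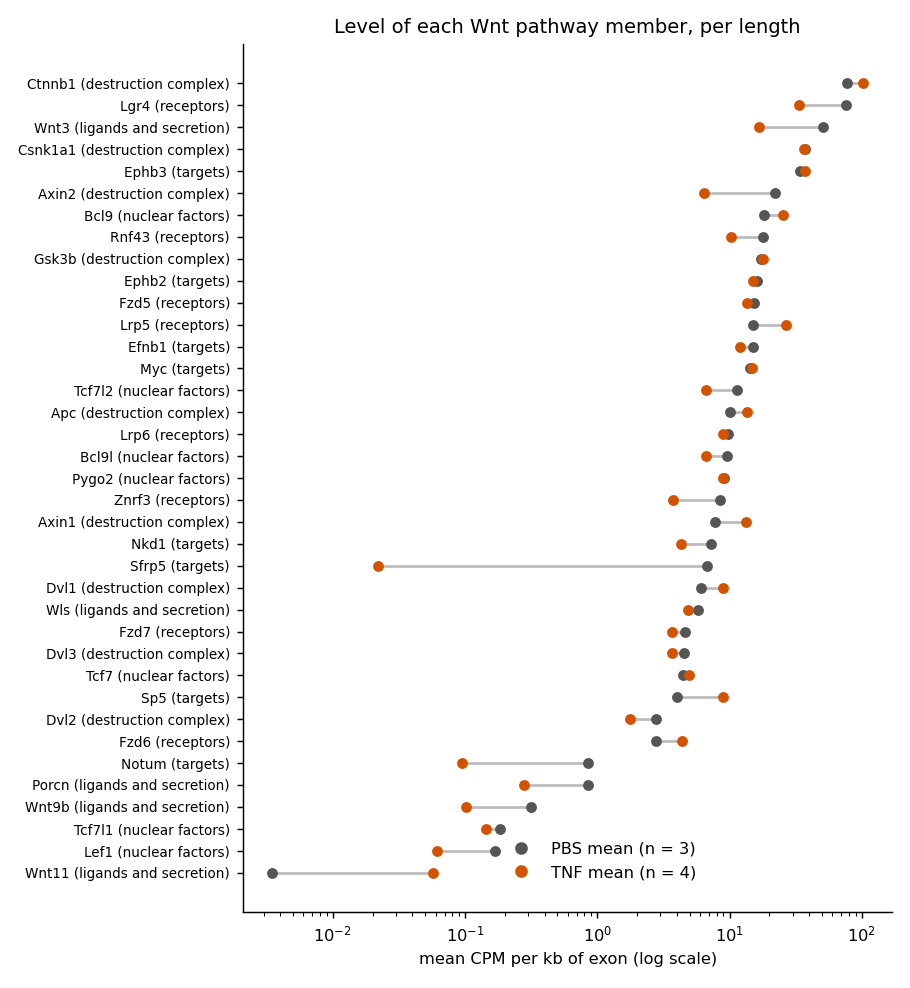
Mean CPM per kb of exon (log axis) of the 37 members after PBS (grey, n = 3) and TNF (orange, n = 4), ordered by the level after PBS. The lines join the means of a gene, and the longest are those of Sfrp5, which moved from 6.8 to 0.0221 CPM per kb, and Wnt11, which rests on 20 counts in all.

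Of the ligands and the secretion genes, 3 of 4 tested fell, with few counts for Wnt9b, and none rose. Of all genes 30.1% fell and 29.5% rose. Wnt3 (ENSMUSG00000000125, chromosome 11, 103664976 to 103708853 in GRCm39) had 182, 151 and 151 CPM in the PBS libraries and 42, 57.5, 50.2 and 59.7 CPM in the TNF libraries. Every TNF library was below every PBS library. The mean was 161 ± 18 CPM after PBS (SD, n = 3) and 52.4 ± 8.04 CPM after TNF (SD, n = 4), with a log2 change of -1.62 ± 0.13 (SE, edgeR adjusted p = 1.48e-07). Porcn (ENSMUSG00000031169, chromosome X, 8059935 to 8073131), which encodes the acyltransferase that attaches the lipid to Wnt proteins, was far less abundant. It had 6.3, 5.04 and 5.78 CPM after PBS and 1.73, 2, 1.39 and 2.42 CPM after TNF, again without overlap, and fell by 1.60 ± 0.30 on the log2 scale (SE, edgeR adjusted p = 0.000362). Wls (ENSMUSG00000028173, chromosome 3, 159545287 to 159644557), the carrier that brings Wnt proteins to the cell surface, held most of its level. Its values were 81.2, 74.9 and 77.3 CPM after PBS and 70.5, 62.4, 59.4 and 72.8 CPM after TNF. These groups did not overlap either, but the log2 change of -0.23 ± 0.10 was not called (edgeR adjusted p = 0.0702). Wls was called lower without TNF replicate 1 (-0.26, adjusted p = 0.0477), without TNF replicate 4 (-0.29, 0.031) and with scaling by total counts (-0.39, 0.0312).

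The other ligands of the list were close to the limit of detection. Wnt9b lies next to Wnt3 on chromosome 11, with 24320 bases between the genes and the opposite strand. It had 1.85, 0.916 and 1.48 CPM after PBS and 0.168, 1.06, 0.268 and 0.327 CPM after TNF, or 76 and 31 counts in all, and TNF replicate 2 lay within the range of the PBS libraries. Its log2 change of -1.62 ± 0.64 (SE, edgeR adjusted p = 0.0429) was -2.45 without TNF replicate 2. The call for Wnt9b was lost without PBS replicate 1 (-1.38, adjusted p = 0.154) or PBS replicate 3 (-1.59, 0.0869), and equally when TNF replicate 1 (-1.35, 0.0768), replicate 3 (-1.44, 0.0961) or replicate 4 (-1.51, 0.0835) was left out. Wnt11 did not pass the filter, with 1 count in all after PBS and 19 after TNF, 10 of them in TNF replicate 4. The ratio of TNF to PBS was 15.1 (95% exact binomial interval 2.4 to 628), or 9.2 without TNF replicate 4 (1.28 to 403), 10.6 without PBS replicate 1 (1.69 to 442), 9.68 without PBS replicate 2 (1.54 to 402) and at least 3.3 without PBS replicate 3, where the PBS count was 0 and a floor of 3 counts over the group was used. These intervals and floors cover counting error only.

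**Figure D3:**
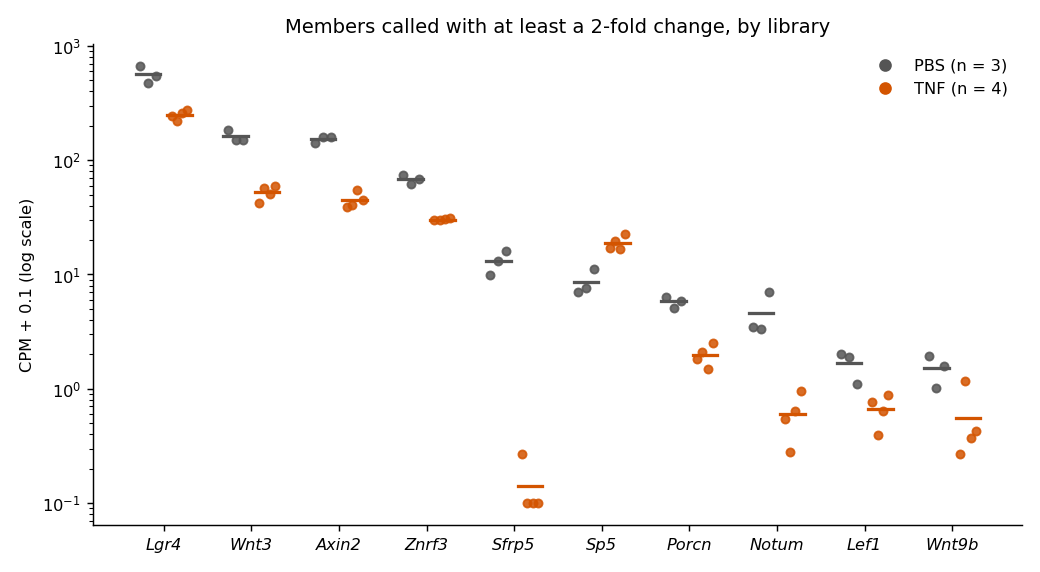
CPM + 0.1 per library (log axis, points) with group means (bars) for the 10 members called with a change of at least 2-fold, PBS in grey (n = 3) and TNF in orange (n = 4). The groups overlap for Wnt9b, through TNF replicate 2 at 1.06 CPM, and for Sfrp5 the points at 0.1 are libraries with 0 counts.

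Of the 8 receptor genes, 2 rose, 3 fell and 3 were not called, so 62.5% were called beside 59.6% of all genes. The falls were those of Lgr4, the receptor for R-spondins, and of the membrane ubiquitin ligases Rnf43 and Znrf3, which remove Frizzled receptors from the surface and are themselves held back by R-spondins and Lgr receptors. Lgr4 (ENSMUSG00000050199, chromosome 2, 109747839 to 109844609) had 669, 476 and 549 CPM after PBS and 242, 219.7, 259 and 277 CPM after TNF. It fell by 1.18 ± 0.13 on the log2 scale (SE, edgeR adjusted p = 3.62e-06). Znrf3 (ENSMUSG00000041961, chromosome 11, 5226324 to 5394939) had 74.2, 61.4 and 67.9 CPM after PBS, and its TNF libraries lay close together at 29.7, 29.6, 30.5 and 30.8 CPM, with a log2 change of -1.17 ± 0.10 (adjusted p = 4.26e-07). Rnf43 (ENSMUSG00000034177, chromosome 11, 87553548 to 87626377) had 117, 112 and 123 CPM after PBS and 70.4, 58.6, 71.4 and 71.1 CPM after TNF, a smaller fall of 0.79 ± 0.10 on the log2 scale (edgeR adjusted p = 1.52e-05). For all 3 genes each TNF library was below each PBS library.

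The co-receptors and the Frizzled genes among the members, Fzd5, Fzd6 and Fzd7, were not called lower. Lrp5 (ENSMUSG00000024913, chromosome 19, 3634821 to 3736643) had 152, 151 and 141 CPM after PBS and 246, 287, 271 and 250.2 CPM after TNF, a rise of 0.83 ± 0.10 on the log2 scale (SE, edgeR adjusted p = 1.01e-05) without overlap. Its partner Lrp6 had 162, 137 and 154 CPM after PBS and 138, 133, 139.5 and 138 CPM after TNF, within the range of the PBS libraries or just below it, and was not called (-0.14 ± 0.10, adjusted p = 0.224). Among the Frizzled members, Fzd5 was the highest per length, with 15.2 CPM per kb after PBS and 13.5 CPM per kb after TNF. Fzd5 had 92.3, 108 and 115 CPM after PBS and 96.7, 88, 103 and 85.8 CPM after TNF and was not called (-0.17 ± 0.11, adjusted p = 0.192). Fzd6, often placed in the branch of the pathway without beta-catenin, had 23.5, 15.7 and 18.3 CPM after PBS and 33.2, 30.5, 26.5 and 29.9 CPM after TNF. It rose by 0.65 ± 0.15 (adjusted p = 0.00189). Fzd7 had 22.4, 29.6 and 29.7 CPM after PBS and 21.7, 17.7, 26.8 and 20.7 CPM after TNF, with overlap, and was not called (-0.33 ± 0.16, adjusted p = 0.0883). It was called lower without PBS replicate 1 (-0.44, adjusted p = 0.0369) and without TNF replicate 3 (-0.46, 0.0279).

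In the destruction complex, 4 of 9 genes rose, 2 fell and 3 were not called, so 66.7% were called beside 59.6% of all genes. Both scaffolds of the Axin type moved in opposite directions. Axin2 (ENSMUSG00000000142, chromosome 11, 108811169 to 108841609), which is induced by beta-catenin and limits it in turn, had 139.9, 161 and 159.7 CPM after PBS and 38.8, 40.6, 54.3 and 45.1 CPM after TNF. The highest TNF library was below the lowest PBS library, and the log2 change was -1.78 ± 0.12 (SE, edgeR adjusted p = 3.97e-08). Axin1 (ENSMUSG00000024182, chromosome 17, 26350235 to 26414789), the constitutive scaffold, had 60.8, 59.2 and 60.8 CPM after PBS and 102, 105, 109.9 and 94.8 CPM after TNF, a rise of 0.77 ± 0.10 (adjusted p = 1.12e-05). After PBS the libraries thus held more CPM of Axin2 than of Axin1, and after TNF more of Axin1 than of Axin2.

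The other core genes changed less. Ctnnb1 (ENSMUSG00000006932, chromosome 9, 120757422 to 120789579) had 684, 631 and 587 CPM after PBS and 823, 791, 888 and 834 CPM after TNF, a rise of 0.40 ± 0.12 on the log2 scale (SE, edgeR adjusted p = 0.00905). Apc, the scaffold that is lost in most colorectal tumours, had 205, 181 and 156 CPM after PBS and 257, 219, 254 and 241 CPM after TNF, a rise of 0.43 ± 0.12 (adjusted p = 0.0057). For both genes the groups did not overlap, but the calls were lost with scaling by total counts (Ctnnb1 0.24, adjusted p = 0.0643, and Apc 0.28, adjusted p = 0.0684). The kinases of the complex were not called, with log2 changes of 0.06 ± 0.10 for Gsk3b (adjusted p = 0.585) and -0.03 ± 0.10 for Csnk1a1 (0.803). Their TNF libraries ran from 169 to 190.1 CPM and from 427 to 462 CPM, beside 164 to 176 CPM and 437 to 472 CPM after PBS. Counts of Ctnnb1 may be affected by Ulk4, whose exons share positions with it, because the use of strand in the counting is unknown.

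The Dishevelled genes, which carry the signal from Frizzled to the destruction complex, moved apart as well. Dvl1 had 54.7, 65.6 and 77.3 CPM after PBS and 91.7, 121, 83.7 and 89.8 CPM after TNF, a rise of 0.55 ± 0.15 on the log2 scale (SE, edgeR adjusted p = 0.005) that was not called with scaling by total counts (0.36, adjusted p = 0.143). Dvl2 had 19.3, 17.5 and 19.2 CPM after PBS and 12.1, 11.7, 13.1 and 10 CPM after TNF, and fell by 0.67 ± 0.15 (adjusted p = 0.00135). Dvl3 had 45.6, 48.1 and 43.1 CPM after PBS and 41.4, 40.1, 39 and 28.4 CPM after TNF. All its TNF libraries were below the PBS libraries, but the change of -0.29 ± 0.13 was not called (adjusted p = 0.0738), except without TNF replicate 1 (-0.35, 0.0374). Exons of Dvl1 share positions with Tas1r3 and those of Dvl2 with Acadvl, so these counts depend on how overlaps were treated.

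Of the 7 nuclear factors, 1 rose, 3 fell and 3 were not called, so 57.1% were called beside 59.6% of all genes. Tcf7l2 (ENSMUSG00000024985, chromosome 19, 55730188 to 55922091), which encodes the main Tcf factor of the intestinal epithelium, had 106, 96.3 and 101 CPM after PBS and 61, 70.3, 52.2 and 52.6 CPM after TNF. It fell by 0.77 ± 0.12 on the log2 scale (SE, edgeR adjusted p = 5.96e-05) without overlap. Tcf7 had 16.8, 16.4 and 18.1 CPM after PBS and 18.9, 17.9, 18.6 and 20.9 CPM after TNF and was not called (0.15 ± 0.13, adjusted p = 0.328). Tcf7l2 was the highest of the Tcf and Lef genes per length in both groups, at 11.3 and 6.59 CPM per kb, beside 4.46 and 4.96 CPM per kb for Tcf7.

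Lef1 and Tcf7l1 were nearly silent. Lef1 had 1.92, 1.78 and 1.01 CPM after PBS and 0.672, 0.295, 0.535 and 0.785 CPM after TNF, or 85 and 39 counts in all, and its log2 change was -1.45 ± 0.52 (SE, edgeR adjusted p = 0.0284). The call for Lef1 was lost without PBS replicate 1 (-1.28, adjusted p = 0.111), PBS replicate 2 (-1.34, 0.0994), TNF replicate 2 (-1.23, 0.0683) or TNF replicate 3 (-1.42, 0.0523) and without the filter on low counts (-1.45, 0.0569). Tcf7l1 had 50 counts in each group, between 0.159 and 1.73 CPM per library, and was not called (-0.35 ± 0.72, adjusted p = 0.697).

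The co-activators that bind beta-catenin in the nucleus also differed among themselves. Bcl9 had 193, 162 and 139 CPM after PBS and 192, 248, 244 and 234 CPM after TNF. It rose by 0.48 ± 0.13 on the log2 scale (SE, edgeR adjusted p = 0.00631), although TNF replicate 1 lay just below the highest PBS library. Its paralog Bcl9l had 72.1, 86.7 and 74.1 CPM after PBS and 46.8, 62.7, 57.3 and 49.5 CPM after TNF and fell by 0.52 ± 0.12 (adjusted p = 0.00195) without overlap. Exons of Bcl9l share positions with Cxcr5. Pygo2, which links Bcl9 proteins to chromatin, had 30.3 to 35.4 CPM after PBS and 31.3 to 33.5 CPM after TNF and was not called (-0.03 ± 0.11, adjusted p = 0.817).

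Within the groups of related genes, the ratio of paralogs in each library does not depend on how libraries are scaled. All 12 pairs with a mean of at least 10 CPM for both genes were compared with an exact permutation test (two-sided, difference of means, 35 possible arrangements), a test chosen after the values were seen. The smallest possible p is 0.0286, and it becomes 0.0429 after Benjamini-Hochberg adjustment over the 12 pairs, as it did for 8 of them. Pairs of unrelated genes were not compared, so this count has no share over other pairs beside it. The Dvl ratios share genes and are not separate results. After PBS the log2 ratio of Axin1 over Axin2 was -1.35 ± 0.128 (SD, n = 3), while TNF libraries had 1.21 ± 0.196 (SD, n = 4, exact permutation p = 0.0286), so Axin2 was 2.54-fold above Axin1 after PBS and Axin1 2.32-fold above Axin2 after TNF. Lrp5 over Lrp6 went from -0.03 ± 0.146 to 0.94 ± 0.127 (exact permutation p = 0.0286), from near parity in counts to 1.92-fold.

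The other 6 pairs that passed moved less than Axin1 over Axin2. The log2 ratio of TNF minus PBS changed by 1.23 for Dvl1 over Dvl2, 0.86 for Dvl1 over Dvl3 and -0.37 for Dvl2 over Dvl3, by 1.01 for Bcl9 over Bcl9l, by 0.94 for Tcf7 over Tcf7l2 and by -0.83 for Fzd5 over Fzd6, each with an exact permutation p of 0.0286. Bcl9 was 2.11-fold above Bcl9l after PBS and 4.25-fold after TNF. Tcf7l2 was 5.9-fold above Tcf7 in counts after PBS and 3.08-fold after TNF. Rnf43 over Znrf3 changed by 0.37 (exact permutation p = 0.0571, adjusted p = 0.0762), and Fzd6 over Fzd7 by 0.99, with overlapping values (exact permutation p = 0.0857, adjusted p = 0.103). Fzd5 over Fzd7 (0.16, exact permutation p = 0.2) and Ephb2 over Ephb3 (-0.23, exact permutation p = 0.343) did not pass either. In all pairs that passed, the change kept its sign when any single library was left out, with a range of 2.5 to 2.63 for Axin1 over Axin2.

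**Figure D4:**
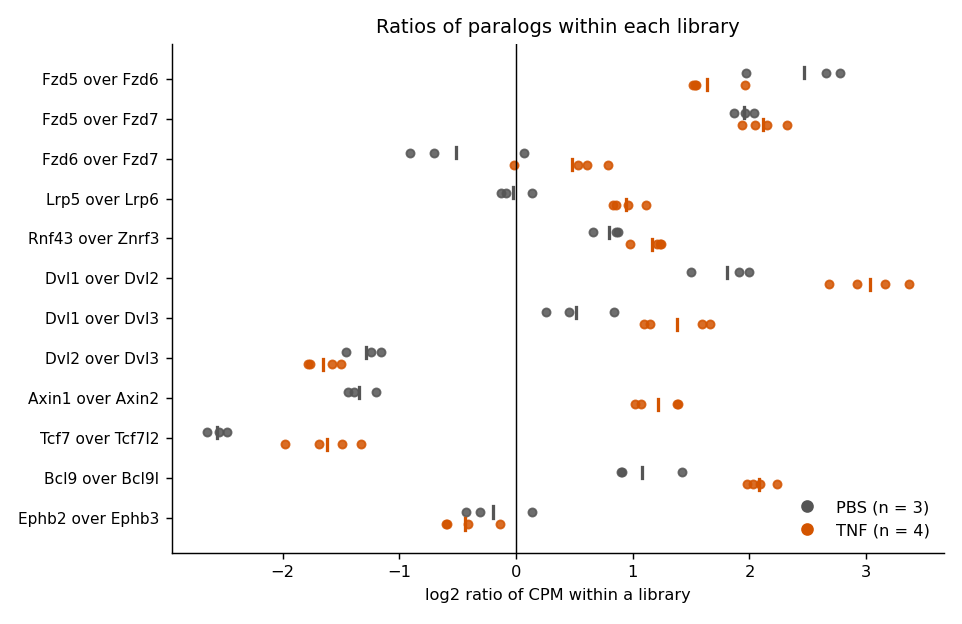
Log2 ratio of CPM of 12 pairs of related genes within each library (points) with group means (bars), PBS in grey (n = 3) and TNF in orange (n = 4). The points of Axin1 over Axin2 lie left of 0 after PBS (mean -1.35) and right of 0 after TNF (mean 1.21), while those of Ephb2 over Ephb3 overlap.

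Among the 8 targets, 1 rose, 4 fell and 3 were not called, so 62.5% were called beside 59.6% of all genes. Sfrp5 and Notum, which act outside the cell, had the largest falls. Sfrp5 (ENSMUSG00000018822, chromosome 19, 42186410 to 42190691), a secreted protein that binds Wnt ligands, had 9.83, 13.1 and 15.8 CPM after PBS and 0.168 CPM in TNF replicate 1, and 0 counts in the other TNF libraries. With 715 counts in all after PBS and 3 after TNF, the ratio of PBS to TNF was 299.7 (95% exact binomial interval 102 to 1456, for counting error only). The fitted log2 change was -8.00 ± 0.54 (SE, edgeR adjusted p = 3.28e-08). Without TNF replicate 1, which held all 3 counts, Sfrp5 was at least 222-fold lower, against a floor of 3 counts over the TNF libraries. Notum (ENSMUSG00000042988, chromosome 11, 120541446 to 120552019), the enzyme that takes the lipid off Wnt proteins, had 3.4, 3.26 and 6.95 CPM after PBS and 0.448, 0.177, 0.535 and 0.851 CPM after TNF, or 250 and 34 counts in all. It fell by 3.17 ± 0.50 on the log2 scale (edgeR adjusted p = 8.48e-05) without overlap. Notum shares exon positions with Notumos on the other strand.

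Nkd1 (ENSMUSG00000031661, chromosome 8, 89247890 to 89324577), which binds Dishevelled and is a feedback inhibitor, had 54.5, 62.5 and 63.3 CPM after PBS and 34.3, 37.1, 36.7 and 32.9 CPM after TNF. It fell by 0.77 ± 0.11 on the log2 scale (SE, edgeR adjusted p = 2.52e-05). The transcription factor gene Sp5 (ENSMUSG00000075304, chromosome 2, 70305267 to 70308073), a direct target of beta-catenin that dampens other targets, moved against these genes. Sp5 had 6.98, 7.48 and 11 CPM after PBS and 17.1, 19.6, 16.5 and 22.3 CPM after TNF, with each TNF library above each PBS library, and rose by 1.15 ± 0.19 (adjusted p = 0.000153).

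The remaining members among the targets, Myc, Ephb2, Ephb3 and Efnb1, changed less than those above. Myc had 38.3, 52.1 and 26.7 CPM after PBS and 36.6, 41.1, 43.7 and 40.8 CPM after TNF and was not called (0.05 ± 0.18, edgeR adjusted p = 0.809). The PBS libraries of Myc spread more widely than the TNF libraries. The receptors Ephb2 and Ephb3, which take part in placing cells along the crypt through repulsion by ephrin-B ligands, had log2 changes of -0.11 ± 0.12 (adjusted p = 0.472) and 0.10 ± 0.12 (0.46). Ephb3, with 275, 199.7 and 239 CPM after PBS and 254, 272, 246 and 252 CPM after TNF, was the highest target per length, at 34.4 and 37 CPM per kb. The ligand gene Efnb1 had 61.9, 65.8 and 52 CPM after PBS and 48, 45.1, 55.5 and 43.9 CPM after TNF, with overlap. Its small fall of 0.31 ± 0.12 on the log2 scale (edgeR adjusted p = 0.035) was not called without PBS replicate 1 (-0.29, 0.102), PBS replicate 2 (-0.24, 0.166), TNF replicate 2 (-0.28, 0.0914) or TNF replicate 4 (-0.28, 0.0674).

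A wider list of 115 other genes of the pathway, of which 113 were in the table and 75 were tested, gives the background within Wnt signalling. Of these 75 genes, 17 (22.7%) were higher and 30 (40%) lower after TNF, beside 29.5% and 30.1% of all genes, with a median log2 change of -0.09. Among 16 other ligands, 5 had 0 counts in every library and 5 were tested, and the 1 called was Wnt5a, a ligand that mostly acts without beta-catenin. Wnt5a had 6.68, 8.55 and 5.3 CPM after PBS and 0.112, 0.648, 0.589 and 0.458 CPM after TNF, and fell by 3.90 ± 0.43 on the log2 scale (SE, edgeR adjusted p = 3.76e-06). Wnt3 was above it in both groups at 51.2 and 16.6 CPM per kb, against 0.852 and 0.0562 CPM per kb for Wnt5a.

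Of 17 genes for R-spondins and other receptors, 11 were tested, with 4 higher and 4 lower. The R-spondin genes had 0 counts in every library except for Rspo4, which had 0.168 CPM in TNF replicate 1. Lgr5, the stem cell marker and relative of Lgr4, had 149, 145 and 169 CPM after PBS and 37.8, 28.4, 33.1 and 24 CPM after TNF, and fell by 2.32 ± 0.14 on the log2 scale (SE, edgeR adjusted p = 1.11e-08). Fzd9 was above Fzd5 per length after PBS, with 28 against 15.2 CPM per kb, and below it after TNF, with 8.28 against 13.5 CPM per kb. Its counts of 67.8, 60.6 and 64.3 CPM after PBS and 15.8, 19.3, 19.6 and 21.1 CPM after TNF gave a fall of 1.76 ± 0.12 (adjusted p = 3.46e-08). Other Frizzled genes rose, namely Fzd3 by 1.24 ± 0.22 (adjusted p = 0.000228) and Fzd1 by 0.80 ± 0.20 (0.00351). Fzd2 fell by 5.37 ± 0.69 on the log2 scale (edgeR adjusted p = 1.52e-05), with 211 counts in all after PBS and 6 after TNF.

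Of 16 other secreted and membrane inhibitors, 15 were in the table, 7 had 0 counts in every library and 4 were tested, with 1 higher and 2 lower. Wif1, another secreted binder of Wnt proteins, had a mean of 7.43 ± 0.225 CPM after PBS (SD, n = 3) and 0.7 ± 0.255 CPM after TNF (SD, n = 4), a fall of 3.38 ± 0.34 on the log2 scale (SE, edgeR adjusted p = 1.46e-06). Dkk3 fell by 1.07 ± 0.15 (adjusted p = 3.7e-05) and Kremen1, a receptor for Dickkopf proteins, rose by 0.68 ± 0.13 (0.000443). Of 14 other crypt targets, 12 were tested, with 1 higher and 7 lower. The transcription factor gene Ascl2, a stem cell regulator, went from 13.9 ± 1.85 CPM to 0.544 ± 0.286 CPM, a fall of 4.65 ± 0.33 on the log2 scale (edgeR adjusted p = 4.79e-08), and the cyclin gene Ccnd2 fell by 1.40 ± 0.11 (9.07e-08). In contrast, the adhesion receptor gene Cd44 rose from 67.7 ± 6.37 CPM to 166 ± 19.1 CPM, by 1.30 ± 0.12 (6.38e-07).

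Of 21 other cytoplasmic components, 16 were tested, with 6 higher and 4 lower. The ubiquitin ligase subunit gene Fbxw11, which takes part in the degradation of beta-catenin, rose by 1.06 ± 0.11 on the log2 scale (SE, edgeR adjusted p = 1.8e-06), and Amer1, which binds Apc, and Cby1, an antagonist of beta-catenin, fell by 0.99 ± 0.16 (0.000107) and 1.23 ± 0.29 (0.00241). Of 18 other nuclear components, 17 were tested, with 3 higher and 9 lower. The co-repressor gene Ctbp2 rose by 1.17 ± 0.10 (adjusted p = 2.75e-07), and the co-repressor gene Tle2 and the kinase gene Nlk fell by 1.77 ± 0.31 (0.00021) and 1.15 ± 0.12 (2.08e-06). The direction within these 2 lists was thus mixed.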

How the data were processed

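Sorted PCs of 3 PBS and 4 TNF mice were compared. The authors deposited raw counts per Ensembl gene, 1 column per library. The submitters' processing notes name FastQC, Trimmomatic 0.39, STAR 2.7.10a, DESeq2 and the builds mm10 and mm39. The counting program, annotation and strand use have no entry: not given in the sources used here. Symbols, coordinates and exon lengths came from GENCODE M39 (GRCm39), which held 98.8% of 55414 identifiers and may differ from the annotation used for counting. Genes were filtered with filterByExpr, which left 14329, scaled by TMM and tested with edgeR 4.0.16 in R 4.3.3 (glmQLFit with robust fit, two-sided, no covariates). The test was checked on simulated counts. No library repeated another of its group, the smallest chi-square divided by its degrees of freedom being 16.7. SEs are the fitted change divided by the square root of F. CPM per kb uses the union of exons.

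The members, lists and rule for naming genes were chosen with earlier results of these data known. Library values are given for members called with at least 2-fold change, the highest of each group and paralogs that moved apart, and of each other list the 3 called genes with the largest change and a mean of at least 1 CPM are named. Genes named beyond this rule were chosen after their values were seen. Alternatives were DESeq2 1.42.0 and its size factors, total-count scaling, TMM without alpha-defensins, Lyz1 and Reg3g, other filters, a 2-fold requirement, the replicate number as a block and leaving out each library.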

Additional observations from a re-analysis of the deposited data

Results flagged for a closer look

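Within the TNF group, the highest and the lowest of the 4 libraries were compared with the others for each of the 37 members, by the gap to the nearest library divided by the range of the group. A library stood apart in 2 of the 37, where about 1 in 20 would by chance. For Rnf43, TNF replicate 2 was low at 58.6 CPM, with a ratio of 0.916, and the other TNF libraries had 70.4 to 71.4 CPM. For Sfrp5, TNF replicate 1 held the only 3 counts after TNF, and the ratio of 1 follows from the 0 counts of the other TNF libraries, whatever the count.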

How the results depend on the processing

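The number of members called higher (8) and lower (15) was 5 and 16 with scaling by total counts and 1 and 9 when a change of at least 2-fold was required. For the other pathway genes (17 and 30), these numbers were 11 and 31, and 6 and 15. For all genes tested (4229 and 4314), they were 3142 and 4614, and 2065 and 2465. Leaving out a single library gave 8 members higher in each case and 13 to 16 lower, and 15 to 21 other pathway genes higher and 28 to 32 lower. The highest member of each of the 5 groups stayed the same with the length of the longest transcript. Directions were reversed only for members that were not called. With scaling by total counts these were Gsk3b (-0.09), Tcf7 (-0.02), Myc (-0.10) and Ephb3 (-0.05), and without single libraries Csnk1a1 (-0.07 to 0.01), Tcf7l1 (-0.86 to 0.39), Pygo2 (-0.09 to 0.03), Myc (-0.16 to 0.32) and Ephb3 (-0.00453 to 0.23). Of 502 comparisons of a member with an alternative, 466 kept the direction and the side of the threshold, 21 lost a call, 6 gained a call and 9 reversed. The cause of these changes was not tested.

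The replicate numbers were not taken to pair the libraries, each of which comes from its own mouse. Deviations of libraries 1, 2 and 3 from their group means had correlations of -0.398, -0.0473 and -0.227 between PBS and TNF. Between unlike numbers the correlations ran from -0.264 (PBS replicate 3 and TNF replicate 4) to 0.42 (PBS replicate 3 and TNF replicate 1). A batch shared across the groups was not tested. With the replicate number as a block, 7 members were higher and 12 lower, all among the calls without it, and 13 and 26 other pathway genes. The calls lost were Ctnnb1 (adjusted p = 0.0979), Wnt9b (0.132), Lef1 (0.0801) and Efnb1 (0.168). DESeq2 also called 8 members higher and 15 lower. Genes with few counts, such as Wnt9b, Wnt11, Lef1 and Tcf7l1, limit what could be detected at this depth.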

Other observations

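Planar cell polarity, the branch of Wnt signalling that orients cells within the epithelium, was covered by 13 of the 115 other pathway genes, whose calls are part of the counts given for that wider list but were not described there. Of these 13 genes, 10 were tested, with 2 higher and 3 lower after TNF and 5 not called, beside 29.5% and 30.1% of all genes. Invs, which encodes inversin, a ciliary protein that binds Dishevelled, had 7.66, 7.74 and 7.48 CPM after PBS and 1.06, 0.766, 1.12 and 0.327 CPM after TNF. It fell by 3.19 ± 0.36 on the log2 scale (SE, edgeR adjusted p = 3.88e-06). The atypical cadherin genes of this branch differed, with a fall of 1.43 ± 0.17 for Celsr2 (adjusted p = 5.46e-06) and a rise of 1.28 ± 0.38 for Celsr3 (0.0102), while Celsr1, the most abundant of them per length, was not called (0.07 ± 0.12, adjusted p = 0.643). The core genes Vangl1 (0.12 ± 0.18, adjusted p = 0.594) and Vangl2 (-0.57 ± 0.28, 0.093) were not called.

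The receptors outside the Frizzled family, some of which bind Wnt5a, did not move in 1 direction. Of Ror1, Ror2, Ptk7 and Ryk, which were chosen after their values were seen, 2 rose, 1 fell and 1 (Ror1) had 0 counts in every library. Ror2 had 24.2, 18.2 and 23 CPM after PBS and 38.2, 41.3, 43.1 and 42.2 CPM after TNF, a log2 change of 0.92 ± 0.13 (SE, edgeR adjusted p = 2.6e-05). Ptk7, a related receptor-like protein, had 28.8, 21.5 and 19.7 CPM after PBS and 59.3, 59.6, 58.2 and 56.3 CPM after TNF, a log2 change of 1.32 ± 0.13 (adjusted p = 1.49e-06). Ryk, a receptor with an inactive kinase domain, had 62.6, 60.1 and 51.3 CPM after PBS and 43.2, 46.2, 50.9 and 43 CPM after TNF, and fell by 0.34 ± 0.11 on the log2 scale (edgeR adjusted p = 0.0171). For Ror2, Ptk7 and Ryk the groups did not overlap, as for 60.7% of all genes tested.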
